A study of Mus musculus with 12 samples.

Results

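The 6 genes described here encode metabotropic glutamate receptors, and they were found by matching the mouse symbols Grm2, Grm3, Grm4, Grm5, Grm7 and Grm8 to the 29879 gene identifiers of the count data. Each symbol matched 1 identifier. Grm5 is the only group I receptor among them, so group I stands here for Grm5 alone. Grm2 and Grm3 are the group II receptors, and Grm4, Grm7 and Grm8 belong to group III. RNA was sequenced from the cortex of mice at postnatal day 21, all of the SNAP25 BacTRAP transgenic line. In such a line, cells that use the Snap25 gene, which is active in neurons, carry a ribosomal protein tagged with eGFP. Messages on tagged ribosomes can then be collected with antibodies to eGFP, a method called translating ribosome affinity purification. There were 4 preparations with 3 libraries each: whole cortex RNA (WCH), the eGFP immunoprecipitate of cortex (TRAP), the SN band of a sucrose and percoll gradient taken without immunoprecipitation (SNF), and the immunoprecipitate of that band (SynapTRAP). All 4 groups carry the transgene, and no group from mice without it is analysed here, so RNA that sticks to the beads was not measured apart from tagged ribosomes. The labels do not say whether replicates came from separate mice, so p-values measure only the spread between these samples.

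Metabotropic glutamate receptors are membrane proteins that sense glutamate and act through G proteins rather than by opening a pore. Group I receptors couple to Gq proteins and phospholipase C and lie mainly on the postsynaptic side, around the edge of the synapse. Group II and group III receptors couple to Gi and Go proteins, lower cyclic AMP and lie largely on axons and terminals, where they reduce glutamate release. Grm3 is also known from astrocytes.

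The coding ends of the receptors are shown, since some of them encode tails that bind scaffold proteins. Several of these partners are among the genes compared further on. Homer proteins bind a Pro-Pro-X-X-Phe stretch of group I receptors. In the GENCODE M21 annotation (GRCm38), the Grm5 coding sequence of 1171 codons held 1 in-frame match, beginning at codon 1124, within its last 100 codons. The stretch is given with its 5 codons in capitals, at chr7:88130708-88130752 on the plus strand.
Grm5 Homer-binding stretch: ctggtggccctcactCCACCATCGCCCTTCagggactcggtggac
No other receptor of the 6 had the match within its last 100 codons. Grm2 and Grm7 each held 1 match near the start of the coding sequence, at codons 186 and 200, and Grm3, Grm4 and Grm8 held none. Of 21478 mouse coding sequences, 1 per gene, 6.79% held the match anywhere in frame and 1.39% held it within the last 100 codons.

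The last 12 codons and the stop codon of each receptor follow, with the final 4 codons and the stop in capitals. Ends of some of these receptors bind PDZ domain proteins, which was not tested for the ends printed here.
Grm5 coding end, chr7:88130831-88130869, plus strand: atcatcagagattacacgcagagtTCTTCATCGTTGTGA
Grm2 coding end, chr9:106645018-106645056, minus strand: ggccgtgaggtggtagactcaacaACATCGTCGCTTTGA
Grm3 coding end, chr5:9485768-9485806, minus strand: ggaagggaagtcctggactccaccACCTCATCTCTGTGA
Grm4 coding end, chr17:27426784-27426822, minus strand: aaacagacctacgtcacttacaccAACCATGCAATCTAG
Grm7 coding end, chr6:111566029-111566067, plus strand: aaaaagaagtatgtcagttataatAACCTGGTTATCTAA
Grm8 coding end, chr6:27285685-27285723, minus strand: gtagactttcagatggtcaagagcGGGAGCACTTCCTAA
Other splice forms end differently, and the counts, which are 1 value per gene, do not separate them.

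Gene counts were 4368881 to 14335089 per library, but counts outside the mitochondrial genome were only 1819853 to 2111322 in SNF against 3585898 to 7115176 in the other groups. Mitochondrial RNA took 82.2% to 87.3% of gene counts in SNF and 33.6% to 50.9% in WCH. It took 0.930% to 5.43% in TRAP and 20.4% to 63.3% in SynapTRAP, where replicate 3 was highest. Levels are therefore given as CPM, read counts scaled to a common library size, with the trimmed mean of M-values (TMM) as scaling, and changes are relative to the bulk of genes. Glial markers also moved with the preparations. The summed level of 10 astrocyte markers was 13360 to 18523 CPM in SNF and 9071 to 15760 in SynapTRAP, against 2224 to 2794 in WCH and 594 to 1347 in TRAP. The TRAP libraries differed among themselves, with summed oligodendrocyte markers of 2224, 532 and 7100 CPM in replicates 1 to 3, and SynapTRAP replicate 3 held 21660 against 10014 and 8845 in the other SynapTRAP libraries. Every marker of the 8 cell type lists had counts in every group. The summed level of 10 neuron markers was 8669 to 9411 CPM in WCH and 8924 to 13312 in TRAP. It was lower than in every WCH library in SNF (7362 to 8173) and in SynapTRAP (4301 to 7951). Snap25 made up much of this sum, with means of 7147 CPM in WCH and 3682 in SNF. By marker, 6 of 10 were called higher and 0 lower in TRAP against WCH, where 11.1% and 10.9% of all tested genes were. In SNF against WCH 2 of 10 were called higher and 2 lower, against 20.6% and 16.5% of all tested genes. The sum of 6 excitatory neuron markers was 1527 to 1919 CPM in WCH and 1956 to 5945 in TRAP. It was 3199 to 3448 CPM in SNF and 6070 to 9313 in SynapTRAP. Camk2a led that sum, with means of 1202, 2966, 2495 and 6705 CPM in WCH, TRAP, SNF and SynapTRAP. Of the 6, 2 were called higher and 0 lower in TRAP, and 2 higher and 2 lower in SNF, each against WCH. The transgene's GFP mRNA was at 4.66 to 7.26 CPM in WCH and 21.5 to 55.1 in TRAP, and at 2.88 to 3.72 in SNF and 7.52 to 10.1 in SynapTRAP.

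**Figure D1:**
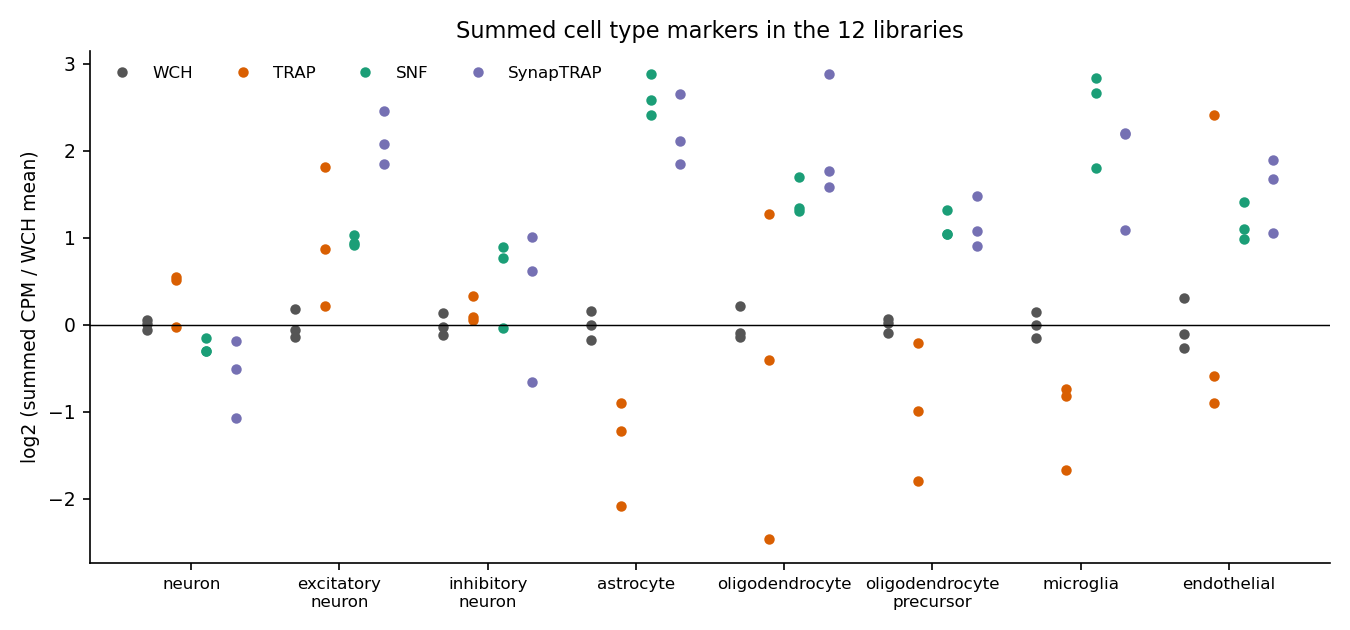
Summed CPM of 8 cell type marker lists in each of the 12 libraries, as the log2 ratio to the WCH mean. Points are libraries, coloured by preparation. Astrocyte, oligodendrocyte and microglia markers lay above WCH in every SNF and SynapTRAP library, and astrocyte markers lay below WCH in every TRAP library.

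All 6 receptors were expressed in all 12 libraries, with raw counts from 61 (Grm8 in SNF replicate 1) to 2669 (Grm5 in SynapTRAP replicate 2), and all 6 passed the filter on low counts. Levels of different genes are compared per kilobase of annotated exon. In WCH, Grm3 (14.8 ± 2.88 CPM per kilobase, SD, n = 3) and Grm5 (12.3 ± 2.18) led and overlapped each other. Grm7 (4.16 ± 0.222) followed, then Grm2 (3.19 ± 0.379) and Grm4 (3.10 ± 0.292), whose ranges overlapped. Grm8 was lowest at 0.670 ± 0.0360 CPM per kilobase. The order changed in TRAP, where Grm3 (14.4 ± 2.8) lay above the rest. Grm2 (7.20 ± 1.91), Grm5 (5.99 ± 1.38) and Grm4 (5.27 ± 0.423) followed with overlapping neighbours, then Grm7 (3.91 ± 0.155) and Grm8 (0.825 ± 0.0253). In SNF the order was Grm3 (54.9 ± 3.73 CPM per kilobase), Grm5 (32.7 ± 2.05), Grm2 (14.1 ± 3.87), Grm7 (10.2 ± 2.07), Grm4 (8.06 ± 1.75) and Grm8 (1.90 ± 0.151), and only Grm7 and Grm4 overlapped. In SynapTRAP, Grm3 (44.0 ± 6.44) and Grm8 (1.47 ± 0.248) stood apart at the ends. Between them, Grm5 (14.96 ± 4.16), Grm2 (11.2 ± 3.87), Grm7 (8.23 ± 1.26) and Grm4 (6.66 ± 1.86) each overlapped the next. By group means, Grm3 was thus the most and Grm8 the least abundant of the 6 per kilobase of exon in every group. By group means per kilobase of coding sequence Grm8 was again lowest. Grm5, however, came first in WCH (46.0% of the summed level against 22.6% for Grm3), in TRAP (24.5% against 23.9%) and in SNF (40.9% against 28.0%). Grm3 came first in SynapTRAP (34.1% against 28.0% for Grm5). The order of these genes was reversed in TRAP replicate 3 (Grm5 19.1%, Grm3 23.8%) and in SynapTRAP replicate 2 (Grm5 31.3%, Grm3 28.9%).

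**Figure D2:**
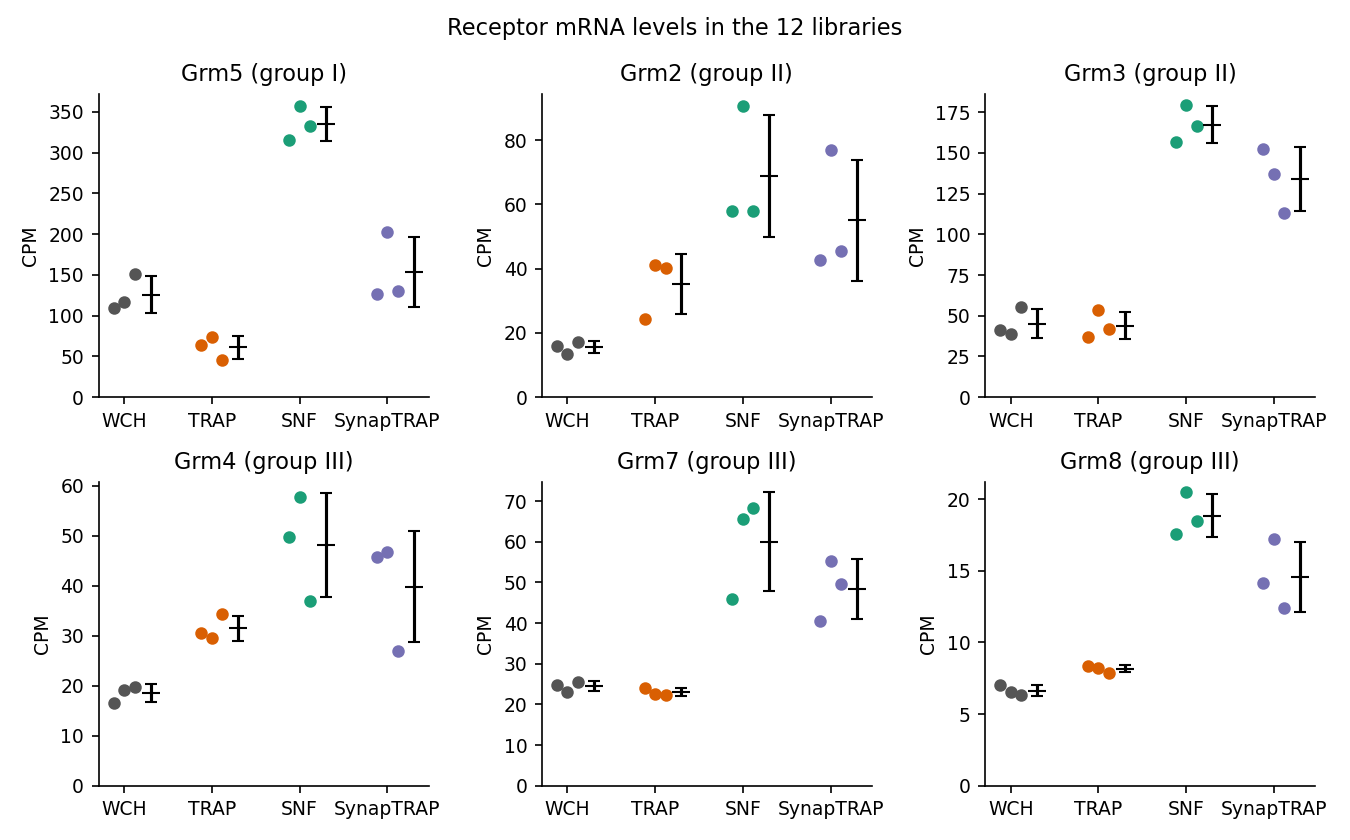
CPM of the 6 receptor genes in each of the 12 libraries, 1 panel per gene. Points are libraries, and bars are group means with 1 SD (n = 3). Grm5 was the receptor with TRAP below WCH and SynapTRAP below SNF without overlap in both pull-downs, and every receptor was higher in SNF than in WCH.

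TRAP was compared with WCH to see which receptor messages were richer on tagged ribosomes than in whole cortex. Grm5 fell by more than 2-fold, while Grm2 and Grm4 rose. Grm3, Grm7 and Grm8 did not pass the test. In edgeR's quasi-likelihood test, 3 of 6 receptors were called at an adjusted p under 0.05 (2 higher, 1 lower), against 22% of the 13404 tested genes (11.1% higher and 10.9% lower).

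Grm5 (ENSMUSG00000049583, chromosome 7, 87584168 to 88134907, plus strand), the group I receptor, had TRAP values of 63.8, 74.1 and 46.2 CPM in replicates 1 to 3. Its WCH values were 109, 117 and 151 CPM. Every TRAP library lay below every WCH library. The log2 fold change was −1.04 (standard error 0.242, adjusted p = 0.0047 by edgeR), a 2.05-fold lower level. Only 10.6% of tested genes had a lower value. Scaled by total counts, where the all-gene median was 0.56 in place of −0.01, Grm5 was at −0.40 and lost its call, but relative to that median it was −0.96, against −1.02 in the TMM fit. The summed astrocyte markers were lower in TRAP as well, as given above, and their part in the Grm5 value was not tested. Without TRAP replicate 3, the library with the most oligodendrocyte RNA, Grm5 was at −0.83 and still called.

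Grm2 (ENSMUSG00000023192, chromosome 9, 106643095 to 106656082, minus strand), a group II receptor of nerve terminals and axons, was at 16.0, 13.6 and 17.2 CPM in WCH. In TRAP it was at 24.5, 41.0 and 40.3 CPM. The groups did not overlap, and replicate 1 was the lowest TRAP library. Grm2 rose by a log2 fold change of 1.18 (standard error 0.270, adjusted p = 0.00415 by edgeR), above 95.9% of tested genes. An antisense gene covers 9.60% of its exons, and whether reads were counted by strand was not stated in the labels.

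Grm4 (ENSMUSG00000063239, chromosome 17, 27422387 to 27521403, minus strand), a group III receptor of nerve terminals, was at 16.5, 19.2 and 19.8 CPM in WCH. Its TRAP values were 30.6, 29.5 and 34.3 CPM, all above WCH. Grm4 rose by a log2 fold change of 0.77 (standard error 0.238, adjusted p = 0.0248 by edgeR). Grm4 no longer passed when WCH replicate 1 (0.73), 2 (0.79) or 3 (0.82) was left out, or TRAP replicate 3 (0.74).

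The other 3 receptors had smaller differences. Grm3 (ENSMUSG00000003974, chromosome 5, 9485541 to 9725170, minus strand), the group II receptor shared by neurons and astrocytes, was at 41.3, 39.1 and 55.3 CPM in WCH and 36.6, 53.4 and 42.0 CPM in TRAP. These ranges overlapped (log2 fold change −0.04, standard error 0.220, adjusted p = 0.918 by edgeR). By comparison, 7 of 10 astrocyte markers fell in TRAP, among them the glutamate transporter genes Slc1a3 (−1.89) and Slc1a2 (−1.49), with a list median of −1.50 against −0.01 over all tested genes. Grm7 (ENSMUSG00000056755, chromosome 6, 110645581 to 111567230, plus strand), the group III receptor of the presynaptic active zone, was at 24.9, 23.0 and 25.6 CPM in WCH and 24.1, 22.6 and 22.4 CPM in TRAP (log2 fold change −0.09, standard error 0.214, adjusted p = 0.806 by edgeR). Its ranges overlapped too. Grm8 (ENSMUSG00000024211, chromosome 6, 27275119 to 28135178, minus strand), the least abundant group III receptor, was at 7.02, 6.56 and 6.33 CPM in WCH. In TRAP it was at 8.36, 8.24 and 7.88 CPM, above WCH in every library, but the difference missed the threshold (log2 fold change 0.30, standard error 0.243, adjusted p = 0.403 by edgeR). Such higher values without overlap were seen in 20.6% of tested genes.

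SNF was compared with WCH to see which messages were richer in the gradient band. All 6 receptors rose, by 2.45-fold (Grm7) to 4.41-fold (Grm2), and no SNF library overlapped WCH for any of them. In this comparison 20.6% of the 13404 tested genes were called higher and 25.6% lay above WCH without overlap. The median log2 fold change was 1.46 over the receptors and −0.25 over all tested genes. The comparison shares its WCH libraries with the one above.

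The group II receptors had the 2 largest values of the 6, a difference that was not tested. Grm2 reached 57.8, 90.7 and 57.9 CPM in SNF (log2 fold change 2.14, standard error 0.278, adjusted p = 7.67e-06 by edgeR), above 97.6% of tested genes. Replicate 2 was the highest SNF library, and without it the value was 1.89. Grm3 reached 157, 179 and 166 CPM (1.89, standard error 0.226, adjusted p = 4.03e-06 by edgeR), above 95.7% of tested genes. All 10 astrocyte markers rose in the same comparison, with a list median of 1.88, and 6 of 10 oligodendrocyte and 10 of 10 microglia markers rose, with medians of 1.43 and 2.23. Their part in the receptor values was not tested, and in such bulk samples more cells of a type and more RNA per cell cannot be told apart.

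Among the others, Grm5 reached 315, 357 and 332 CPM in SNF (log2 fold change 1.41, standard error 0.244, adjusted p = 0.000121 by edgeR). Grm8 was at 17.6, 20.5 and 18.5 CPM (1.5, standard error 0.249, adjusted p = 8.18e-05 by edgeR). Grm4 was at 49.8, 57.7 and 37.0 CPM, with replicate 3 lowest (1.38, standard error 0.244, adjusted p = 0.000156 by edgeR). Grm7 was at 46.0, 65.7 and 68.4 CPM, with replicate 1 lowest (1.29, standard error 0.218, adjusted p = 9.41e-05 by edgeR). None of the 6 calls was lost when any 1 library of either group was left out. The scaling matters here, because mitochondrial RNA fills the SNF libraries: with total counts the median of all genes moved to −2.60 and the receptors were at −1.03 to −0.18, with 3 of 6 called lower. Relative to the median of all genes they were at 1.57 to 2.42 with total counts and at 1.54 to 2.39 with TMM.

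The authors' deposited table of genes enriched in the band lists 3508 genes, beside 29879 in the count data. Its median log2 fold change was 1.60 and its false discovery rates reached 0.106. All 6 receptors are in it. The authors' deposited table gives 2.38 for Grm2, 2.01 for Grm3, 1.66 for Grm4, 1.64 for Grm8, 1.54 for Grm5 and 1.31 for Grm7, with false discovery rates of at most 1.53e-06. The authors' deposited tables of local translation candidates (109 genes) and somatic translation candidates (275 genes) hold 0 of the 6. Both lists are short beside the 29879 genes counted, so 0 of 6 says little about the receptors.

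**Figure D3:**
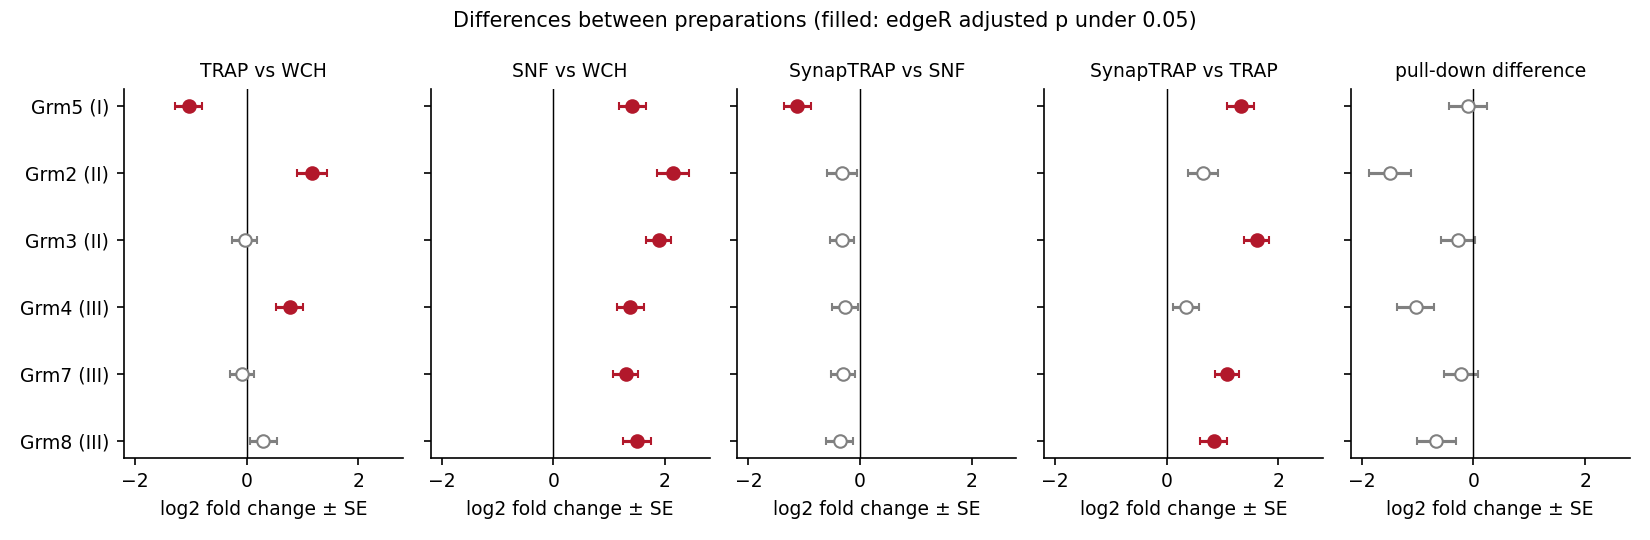
Log2 fold changes of the 6 receptor genes in the 5 comparisons, with 1 SE on each side. Filled points passed edgeR's adjusted p of 0.05 and open points did not. Grm5 lay near −1 in both pull-down comparisons, TRAP against WCH and SynapTRAP against SNF, and all 6 receptors lay right of 0 for SNF against WCH.

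SynapTRAP was compared with SNF to see which messages of the band were on tagged ribosomes. Grm5 fell and no other receptor was called. The test called 4.08% of the 13404 genes, 2.29% higher and 1.79% lower. Grm5 was at 127, 203 and 131 CPM in SynapTRAP, below each of the SNF values of 315 to 357. Replicate 2 was the highest SynapTRAP library. The log2 fold change was −1.13 (standard error 0.242, adjusted p = 0.0137 by edgeR), and 2.75% of tested genes had a lower value. Without SynapTRAP replicate 3 it was at −1.02 and still called. The call was lost without SNF replicate 2 (−1.07), SNF replicate 3 (−1.13) or SynapTRAP replicate 1 (−1.10). With total counts as the scaling the median of all genes was 1.98 and Grm5 was at 0.90, which is −1.08 relative to that median.

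The other 5 receptors lay between −0.37 (Grm8) and −0.27 (Grm4), with SE of 0.214 to 0.265 and edgeR adjusted p of 0.434 to 0.587. Grm3 was at 152, 137 and 113 CPM in SynapTRAP and Grm8 at 14.1, 17.2 and 12.4 CPM, both below every SNF library. Lower values without overlap were seen in 10% of tested genes. Grm2 (42.8, 76.9 and 45.4 CPM), Grm4 (45.6, 46.8 and 27.0 CPM) and Grm7 (40.6, 55.2 and 49.5 CPM) overlapped SNF. The median of the 10 astrocyte markers was −0.41 here. Samples of these groups that share a replicate number deviated together, and with the number as a replicate block 834 genes were called in place of 547, with Grm5 at −1.15.

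SynapTRAP was also compared with TRAP, to set tagged ribosomes of the band against those of the whole cortex. Grm3, Grm5, Grm7 and Grm8 were higher in SynapTRAP, and Grm2 and Grm4 did not pass the test. The comparison reuses the immunoprecipitates already described. It called 4 of 6 receptors, and 39.8% of the 13404 genes (21.6% higher and 18.1% lower). The receptor median was 0.96 against −0.02 over all tested genes. Grm3 rose from 44.0 ± 8.54 CPM in TRAP to 134 ± 19.6 in SynapTRAP (SD, n = 3; log2 fold change 1.61, standard error 0.224, adjusted p = 1.29e-05 by edgeR). Grm5 rose from 61.3 ± 14.1 to 153 ± 42.7 CPM (1.32, standard error 0.244, adjusted p = 0.000231 by edgeR). Every SynapTRAP library lay above every TRAP library for 5 of the 6 receptors, all but Grm4, and such higher values without overlap were seen in 21.4% of tested genes.

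Of the group III receptors, Grm7 rose from 23.0 ± 0.913 CPM in TRAP to 48.5 ± 7.39 CPM in SynapTRAP (log2 fold change 1.07, standard error 0.215, adjusted p = 0.000511 by edgeR). Grm8 rose from 8.16 ± 0.251 to 14.6 ± 2.45 CPM (0.84, standard error 0.239, adjusted p = 0.008 by edgeR). Grm4 overlapped between TRAP (31.5 ± 2.53) and SynapTRAP (39.8 ± 11.1), with SynapTRAP replicate 3 at 27.0 CPM (0.34, standard error 0.235, adjusted p = 0.256 by edgeR), and it was called without that library (0.55). Without SynapTRAP replicate 1 or 2, Grm4 was at 0.21. Grm2 was higher in each SynapTRAP library than in each TRAP library but missed the threshold (0.65, standard error 0.264, adjusted p = 0.0551 by edgeR). These groups also deviated together by number, and with the replicate block Grm2 passed (0.63, edgeR adjusted p = 0.0321). The filter mattered too, as Grm2 passed without a low-count filter (0.63, edgeR adjusted p = 0.0404) and with a stricter one (0.68, edgeR adjusted p = 0.0399). In DESeq2 (0.64) and with only these groups in the fit (0.70) Grm2 did not pass. The value depended on single libraries: Grm2 also passed without SynapTRAP replicate 1 (0.78) or 3 (0.76), but it was at 0.32 (adjusted p = 0.367 by edgeR) without SynapTRAP replicate 2 and at 0.41 (adjusted p = 0.285) without TRAP replicate 1. Glial markers stood beside these values, since all 10 astrocyte markers, all 10 microglia markers and 8 of 10 oligodendrocyte markers were higher in SynapTRAP. Neuron markers moved as well, with 5 of 10 lower, among them Snap25 (−1.58) and Nefm (−1.20), and 1 higher, Syt1 (0.97). The part of either was not tested. With total counts as the scaling the median of all genes was −1.0 and edgeR called no receptor, while relative to that median the receptors were at 0.48 to 1.67.

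The difference between both pull-down effects (SynapTRAP less SNF, minus TRAP less WCH) was tested for each receptor. It uses all the libraries of the comparisons above. Grm5 fell in both pull-downs, and the difference between them was −0.09 (standard error 0.339, adjusted p = 0.918 by edgeR). Grm2, which rose with the pull-down from cortex, was at −0.32 with the pull-down from the band, and the difference was −1.495 (standard error 0.378, adjusted p = 0.0566 by edgeR), lower than in all but 2.04% of tested genes. For Grm4 the difference was −1.03 (standard error 0.337, adjusted p = 0.119 by edgeR). Grm8, Grm3 and Grm7 were at −0.66, −0.28 and −0.22. The test called 0 of 6 receptors in edgeR, against 0.865% of all 13404 genes (0.507% higher and 0.358% lower). Grm2 and Grm4 were the 2 receptors under 0.05 before adjustment, and DESeq2 called both after adjustment. With the replicate block edgeR called Grm2 (−1.46, adjusted p = 0.0225). In edgeR, Grm2 passed when TRAP replicate 1 (−1.83) or SynapTRAP replicate 2 (−1.82) was left out, and in the 10 other such fits it did not, with the weakest value of −1.24 (adjusted p = 0.191) without SNF replicate 2.

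Ratios between receptors within a library do not depend on the scaling between libraries. Of the summed receptor level per kilobase of exon, Grm5 took 18.7%, 16.9% and 12.2% in TRAP replicates 1 to 3, against 30.3%, 32.8% and 33.0% in WCH. It took 27.5%, 25.8% and 27.4% in SNF and 14.2%, 19.9% and 17.4% in SynapTRAP. The group I share was thus lower in each immunoprecipitate library than in each library of its input. The group II share (Grm2 and Grm3) was 57.1% ± 5.22 in TRAP against 47.0% ± 1.94 in WCH, and 63.9% ± 3.27 in SynapTRAP against 56.6% ± 0.619 in SNF (SD, n = 3 each). The group III share (Grm4, Grm7 and Grm8) was 26.9% ± 3.97 in TRAP against 20.9% ± 2.08 in WCH, and 18.9% ± 0.519 in SynapTRAP against 16.5% ± 0.464 in SNF. Both were higher in each immunoprecipitate library than in each library of its input. Since the shares of a library sum to 100%, the combined share of groups II and III must rise when that of Grm5 falls, and in SynapTRAP against SNF each of their genes was itself at a log2 fold change of −0.37 to −0.27. These shares carry no test, and they depend on the lengths taken from the annotation, as given in the closing section.

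Within group II, Grm2 held 8.38% of the receptor level in WCH and 19.0% in TRAP, while Grm3 held 38.6% and 38.1%. In SNF and SynapTRAP, Grm2 held 11.4% and 12.8% and Grm3 held 45.2% and 51.1%, and the log2 ratio of Grm2 to Grm3 counts was −1.31 ± 0.290 and −1.33 ± 0.499 (SD, n = 3). The log2 ratio of Grm2 to Grm5 counts was −0.81 ± 0.593 in TRAP against −3.0 ± 0.200 in WCH, and −1.496 ± 0.0873 in SynapTRAP against −2.31 ± 0.295 in SNF. Within group III, the log2 ratio of Grm4 to Grm7 counts was 0.45 ± 0.148 in TRAP, above zero in each library, and −0.41 ± 0.166 in WCH, below zero in each. In SNF (−0.32 ± 0.513) and SynapTRAP (−0.32 ± 0.527) libraries lay on both sides of zero.

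**Figure D4:**
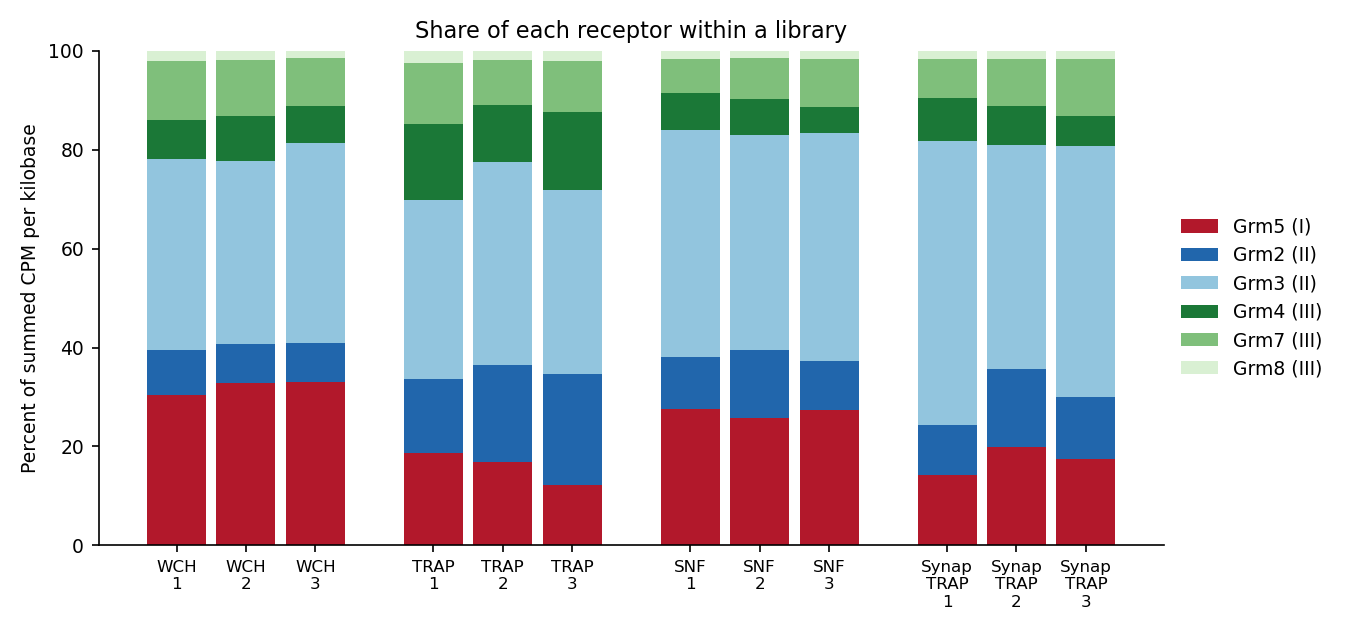
Share of each receptor in the summed CPM per kilobase of exon of the 6 receptors, 1 stacked bar per library. The red segment, Grm5, was 12.2% to 18.7% in TRAP against 30.3% to 33.0% in WCH, and 14.2% to 19.9% in SynapTRAP against 25.8% to 27.5% in SNF.

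Other genes of the receptors' pathways were compared in the same fit. Their counts stand beside the shares of all tested genes called higher and lower, which were 11.1% and 10.9% for TRAP against WCH, 20.6% and 16.5% for SNF against WCH, 2.29% and 1.79% for SynapTRAP against SNF, and 21.6% and 18.1% for SynapTRAP against TRAP. The 22 tested genes of group I signalling and scaffolds had 7 members higher and 2 lower in TRAP than in WCH. The postsynaptic scaffold genes Shank1 (log2 fold change 1.75) and Shank3 (1.53) and Ncdn (1.22), whose product binds the Grm5 receptor, rose there. The translational repressor gene Fmr1 (−1.04) and the G protein gene Gnaq (−0.62) fell with Grm5. In SNF against WCH, where 20.6% of all tested genes rose and 16.5% fell, 6 of these 22 rose and 8 fell, with Dagla (1.57), which makes the lipid messenger released after group I activation, among those higher. Homer1, which encodes the scaffold that binds the Grm5 stretch printed above, fell there from 211 ± 54.7 to 98.7 ± 48.5 CPM (log2 fold change −1.10, edgeR adjusted p = 0.0296), and Rgs4 (−1.07), a brake on Gq and Gi signalling, fell as well. In SynapTRAP against SNF, 4 of 22 rose and 0 fell, among them Shank3 (1.57), the receptor kinase gene Grk2 (1.29) and the diacylglycerol kinase gene Dgkz (1.22), while Grm5 fell. The list median there was 0.25, against 0.03 over all tested genes.

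The 26 genes of group II and III signalling and partners had 5 higher and 1 lower in TRAP. Elfn1, which encodes a postsynaptic adhesion protein that binds group III receptors across the synapse, rose in TRAP (0.97) and in SNF (from 18.4 ± 3.41 to 77.3 ± 29.8 CPM, log2 fold change 2.07, edgeR adjusted p = 1.02e-05). In SNF, 14 of the 26 rose and 5 fell, with the adenylyl cyclase genes Adcy3 (1.87) and Adcy2 (1.72) higher and the protein kinase A catalytic subunit gene Prkacb (−0.78) lower. Kcnj3, a potassium channel gene opened by Gi and Go signalling, fell in both pull-downs (−0.89 in TRAP against WCH and −0.99 in SynapTRAP against SNF), the last being the single call among the 26. Gng3, a G protein gamma subunit gene, was the list's single call in the difference between the pull-downs (−1.48, edgeR adjusted p = 0.038), with 1.32 in TRAP against WCH.

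Ionotropic glutamate receptor genes, which encode the pore-forming glutamate receptors, were set beside them. Of 17, 16 rose and 0 fell in SNF against WCH, with a list median of 1.37. In TRAP 2 of 17 rose, Grin1 (1.48) and Grik5 (1.05), and 5 fell, among them the NMDA receptor gene Grin2b (−1.31) and the AMPA receptor gene Gria2 (−0.73). In SynapTRAP against SNF, 4 fell and 0 rose, including Grin2b (−1.10), Grik2 (−1.02) and Gria3 (−0.97). Of 14 glutamate transport and metabolism genes, 12 rose and 1 fell in SNF, led by Slc1a2 (2.75) and Slc1a3 (2.49). In TRAP the vesicular transporter gene Slc17a7 rose (0.81) and Slc1a2 and Slc1a3 fell. Of 6 tested genes of other class C receptors, 4 rose in SNF, among them the orphan receptor genes Gprc5b (1.97) and Gpr158 (1.69) and the GABA-B receptor gene Gabbr2 (1.74), and 6 rose in SynapTRAP against TRAP.

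The genes with the most similar profile over the 12 libraries were found by the root-mean-square difference of log2 CPM, each gene centred on its own mean, among 7258 candidate genes. For Grm5 these were Tmem132b (difference 0.155), Atp13a3 (0.162) and Ssr3 (0.167). For Grm2 they were Clstn1 (0.158), Nucb1 (0.192) and Slc22a17 (0.193). Grm3 was nearest to Serinc3 (0.158), Galnt1 (0.172) and Canx (0.175). Grm4 was nearest to Atraid (0.123), Scamp3 (0.143) and Atp6v0b (0.162). For Grm7, Lrrtm4 (0.134), Adgrb3 (0.137) and Trpc5 (0.153) came first, and for Grm8 they were Extl3 (0.140), Dscam (0.145) and Pigu (0.146). Among the receptors themselves, Grm7 and Grm8 were closest to each other (0.203) and Grm2 and Grm5 farthest apart (0.871). All genes of a library share its scaling and depth, so these values describe the profiles only.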

How the data were processed

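The authors deposited 1 whole-number read count per gene and library, in 12 libraries of 29879 genes, with 5 closing lines for reads counted for no gene (19.3% to 58.3% of reads), which were left out. The submitters' processing notes name Bowtie2, STAR, HTSeq and edgeR. For versions, genome build, annotation and strand setting no source was found in the labels. Besides counts, the authors deposited 3 lists of chosen genes that give, per the file headers, log2 fold changes, a likelihood ratio score, p-values and false discovery rates.

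A single fit of all 12 libraries in edgeR 4.0.16, run in R 4.3.3, used 1 mean per group, TMM scaling, the default filter (13404 genes kept) and the robust quasi-likelihood test. Every p without another name is Benjamini-Hochberg adjusted over the genes tested in that contrast. The fit was also run on simulated counts. These had the same spread for every gene and equal group means for most genes, unlike the real data, so that run does not vouch for the calls given here. CPM used the same scaling. Symbols, exon lengths and coding sequences came from GENCODE M21 (28758 identifiers matched), with 1 principal APPRIS transcript per gene for sequences. Replicates differed by more than counting error (chi-square per gene 10.7 to 321), and each was counted as a sample. Such spread does not show that replicates came from separate mice. Same-numbered samples deviated together in SynapTRAP and SNF (correlation 0.218 to 0.378) and in SynapTRAP and TRAP (0.104 to 0.144), while in the other contrasts not every pair passed 0.1. Alternatives were DESeq2 1.42.0, other scalings and filters, fewer groups, no mitochondrial genes, the replicate block and leaving out each library. Named pathway genes are up to 3 called per direction with the most extreme values, and similar genes are the nearest 3 with a mean log2 CPM of at least 3. The members and lists were chosen with earlier results of these data known. After their counts had been seen, 2 genes were taken out of the list of other class C receptors; 1 was put back, and the other is not reported here. The search for the Homer-binding stretch and its window of 100 codons, the printed coding ends, the pairs of receptors given as ratios and the values relative to the all-gene median were chosen after seeing the data.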

Additional observations from a re-analysis of the deposited data

How the results depend on the processing

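All 6 receptors kept their call for SNF against WCH under every alternative but total counts, as did Grm2 for TRAP against WCH under every alternative run. With total counts as the scaling, 11452 genes (11 higher, 11441 lower) and 3 receptors were called for SNF against WCH, with Grm5 −0.91, Grm2 −0.18, Grm3 −0.43, Grm4 −0.96, Grm7 −1.03 and Grm8 −0.85. For SynapTRAP against SNF it called 12177 genes (12171 higher, 6 lower) and 6 receptors, with Grm5 0.90, Grm2 1.70, Grm3 1.68, Grm4 1.78, Grm7 1.65 and Grm8 1.64. For TRAP against WCH it gave 2862 higher and 231 lower genes in place of 1488 and 1459, with Grm3 0.58 and Grm7 0.49. For SynapTRAP against TRAP it gave 594 and 6403 in place of 2899 and 2432, 0 receptors, Grm2 −0.23, Grm4 −0.52 and Grm8 −0.074. For the difference between pull-downs it gave 6329 genes, all higher, 1 receptor, Grm5 1.30, Grm3 1.10, Grm4 0.44, Grm7 1.15 and Grm8 0.77. This scaling counts mitochondrial RNA in full. Leaving out mitochondrial genes moved no receptor call.

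For SynapTRAP against SNF the 547 calls (307 higher, 240 lower) became 887 without a low-count filter, 986 in DESeq2 (366 and 620), 261 with only these groups and 834 with the replicate block, and RLE factors gave 185 higher and 366 lower. For SNF against WCH the 2757 higher and 2209 lower became 3059 and 1494 in DESeq2, and RLE factors gave 2966 and 1415. For the difference between pull-downs the 116 calls (68 and 48) became 512 without a filter, 589 in DESeq2 (182 and 407), 366 with the replicate block and 38 higher and 75 lower with RLE factors. There the receptors called were 1 with RLE factors, 1 without a filter, 1 with the replicate block (Grm2 in each) and 2 in DESeq2. In that contrast not every same-numbered pair deviated together, though 12 of 12 libraries correlated best with a library of their own number. The block changed no receptor call for TRAP or SNF against WCH. The causes were not tested.

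Leaving out each library gave 1484 to 2835 genes and 2 to 3 receptors for TRAP against WCH, 3340 to 4640 and 6 to 6 for SNF against WCH, 55 to 952 and 0 to 1 for SynapTRAP against SNF, 4365 to 5613 and 4 to 6 for SynapTRAP against TRAP, and 0 to 444 and 0 to 1 for the difference. Grm3 in TRAP against WCH ran from −0.16 to 0.13, and Grm5 in the difference from −0.39 to 0.015. With coding length in place of exon length, the group I, II and III shares were 46.0%, 30.5% and 23.4% in WCH, 24.5%, 43.2% and 32.4% in TRAP, 40.9%, 39.4% and 19.7% in SNF, and 28.0%, 47.9% and 24.2% in SynapTRAP, with the same direction of change in each pull-down. Fewer than 100 counts of Grm8 in 9 of 12 libraries limit its precision.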
